A study of Arabidopsis thaliana with 12 samples.

Results

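Seedlings of the double mutant lon2-8 atg2-4, which carries an allele of a peroxisomal protease gene and an allele of an autophagy gene, were compared with the wild type Col-0 across all genes of the deposited table. The change is measured between 6 of the 12 libraries of the series, 3 of the double mutant and 3 of Col-0, taken by their column names. The other libraries are 3 of the single mutant atg2-4 and 3 of the single mutant lon2-8. All 12 libraries entered the same fit. The single mutants thus share in the filter on low values and in the spread behind every p-value. Their libraries also served for tests of each single mutant against Col-0 and of the double mutant against each parent and against the sum of both single effects. All 4 genotypes have the Col-0 background and were sampled as whole seedlings from plant nutrient medium in continuous light, with no treatment that sets the groups apart. The age is 8 days in the growth protocol and 6 days in the series design, and no growth or sequencing batch is given. The libraries are called biological replicates, but how many seedlings went into each is not stated, and neither is the kind of change that each allele carries. Each mutant genotype is 1 allele or 1 allele combination, so an effect of LON2 or ATG2 cannot be told apart from that of another change in the same line.

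Peroxisomes break down fatty acids, recycle the glycolate made in photorespiration and release hydrogen peroxide on the way. LON2 is a protease of the peroxisome matrix that also acts as a chaperone, and ATG2 moves lipids into the growing autophagosome, the membrane sac that carries cytoplasm and organelles to the vacuole. In lon2 mutants peroxisomes are removed by autophagy to excess, and loss of autophagy genes brings them back, which is the known setting of a line with both lesions.

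Levels are given as FPKM, fragments scaled to transcript length and to the depth of the library. Changes are the difference between the double mutant and Col-0 on the log2(FPKM + 1) scale with their standard error, and that scale understates changes of genes at low FPKM. A mean level is given ± its SD over the 3 libraries of a genotype. A gene is said to have risen or fallen where the Benjamini-Hochberg adjusted p of limma's moderated test over the 20662 genes tested was under 0.05. P-values measure the spread between these libraries, and which part of it is technical is not known. The 6 libraries held 15868471 to 18690658 fragments, and 19789 to 19871 genes reached 1 FPKM in each. Double mutant libraries correlated with each other at 0.9935 to 0.9938 across genes, which are no independent replicates, and with Col-0 libraries at 0.9468 to 0.9493.

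LON2 (AT5G47040) had 24.7, 25.3 and 27.8 FPKM in the 3 wild-type libraries and 4.45, 4.53 and 5.36 in those of the double mutant (−2.22 ± 0.0641 log2, adjusted p = 1.42e-11), with 11.6 ± 0.472 FPKM in lon2-8 (SD, n = 3). The LON2 message was thus lower in the double mutant than in Col-0 in every library, and the groups did not overlap. LON2 was also lower in the double mutant than in lon2-8 (−1.13 ± 0.0641 log2, adjusted p = 1.12e-08). What sets these 2 lines apart here was not tested. ATG2 (AT3G19190) was at 7.85, 7.6 and 7.67 FPKM in the wild type and 6.41, 6.28 and 7.07 in the double mutant, a small fall (−0.20 ± 0.0607 log2, adjusted p = 0.0141). Leaving out double mutant library 2 ended that call (adjusted p = 0.0572). MAD1, a spindle checkpoint gene, was also lower, with 5.1 ± 0.127 FPKM in Col-0 and 1.12 ± 0.0381 in the double mutant (−1.52 ± 0.0615 log2, adjusted p = 3.7e-10), as was IMPA-1, an importin alpha, with 27.4 ± 0.957 and 4.01 ± 0.298 FPKM (−2.5 ± 0.0494 log2, adjusted p = 4.29e-13). IMPA-1 was at 3.31 ± 0.0648 FPKM in atg2-4 and 26.3 ± 0.263 in lon2-8. The double mutant was slightly above atg2-4 (0.22 ± 0.0494 log2, adjusted p = 0.0176). IMPA-1 overlaps TRX z on the same strand. Titles and genotype tags of the 6 single-mutant samples name opposite mutants, so values of atg2-4 and lon2-8 here rest on the column names. The Col-0 and double mutant labels carry no such conflict.

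Many genes differed between the double mutant and Col-0. Of 20662 genes, 4541 rose (22.0%) and 6212 fell (30.1%), which is 52.0% in all. Changes of at least 2-fold went mostly upward, with 702 genes higher (3.40%) and 173 lower (0.837%). The libraries of the genotypes did not overlap for 60.8% of all genes. Any list of genes therefore holds many that passed, and the counts below are to be read against these shares. The lists and their members were chosen with earlier results of these data known, so their counts are not independent of these data. The median change of all genes was −0.05 log2. When the median change was set to 0 by rescaling the libraries, an alternative added after the data were seen, 5287 genes rose and 5036 fell, so which direction holds more genes depends on the scaling. The authors' deposited table of this comparison lists 8653 genes at a false discovery rate of at most 0.00999, of which 5080 (58.7%) are marked as higher and 3573 as lower. Of the 7875 genes of the authors' deposited table that were tested here, 7580 were called, and all 7580 had the same direction.

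**Figure D1:**
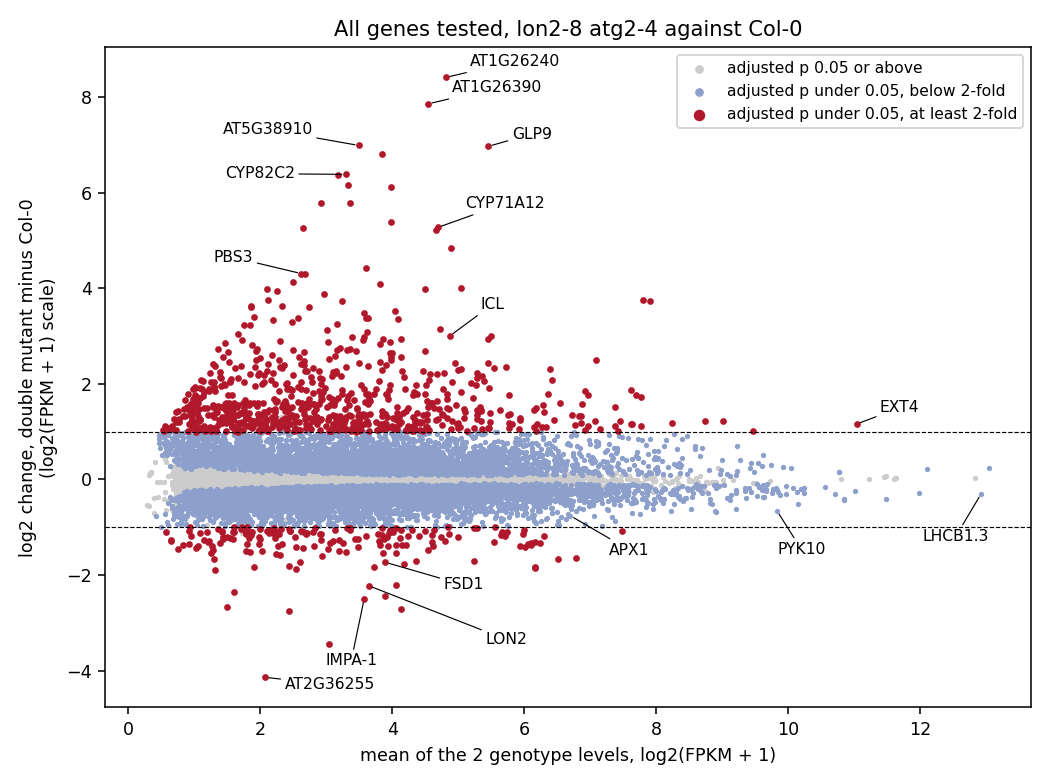
Each point is 1 of the 20662 genes tested, with the mean of the double mutant and Col-0 levels as log2(FPKM + 1) on the x axis and the log2 change in the double mutant on the y axis; dashed lines mark 2-fold. The 702 genes that rose at least 2-fold outnumber the 173 that fell as much, and the rises reach 8.41 log2 for AT1G26240.

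The genes that rose most were nearly silent in wild-type seedlings and abundant in the double mutant. AT1G26240, a proline-rich extensin-like cell wall protein, was at 0.471, 0.611 and 0.498 FPKM in the wild type and at 498, 563 and 498 in the double mutant (8.41 ± 0.109 log2, adjusted p = 9.01e-15). AT1G26390, a FAD-binding enzyme of the berberine bridge family, went from 0.54, 0.491 and 0.571 to 381, 351 and 335 FPKM (7.86 ± 0.0592 log2, adjusted p = 5.8e-17). GLP9, a germin-like cell wall protein, went from 2.19, 3.35 and 3.29 to 499, 493 and 472 FPKM (6.97 ± 0.0967 log2, adjusted p = 1.2e-14). For each of these genes the lowest double mutant library lay over 100 FPKM above the highest Col-0 library. AT5G38910, which like the germins belongs to the cupin proteins, had no fragment in the 3 Col-0 libraries and was at 136, 123 and 119 FPKM in the double mutant. Against a floor of 3 fragments in each Col-0 library, AT5G38910 was at least 702-fold higher, and the uncharacterized AT3G55790, also at 0 in Col-0, at least 213-fold. The remaining members of the 12 largest rises were the non-coding AT1G08763, the P450 enzyme CYP82C2, AT1G29100 of a heavy metal transport family, the PLAC8 protein AT1G58320, the ATPase AT3G28510, the lectin kinase AT2G29220 and GLP4, with changes of 5.39 to 6.81 log2. Here and below, more RNA per cell and more cells of a type cannot be told apart in RNA of whole seedlings.

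**Figure D2:**
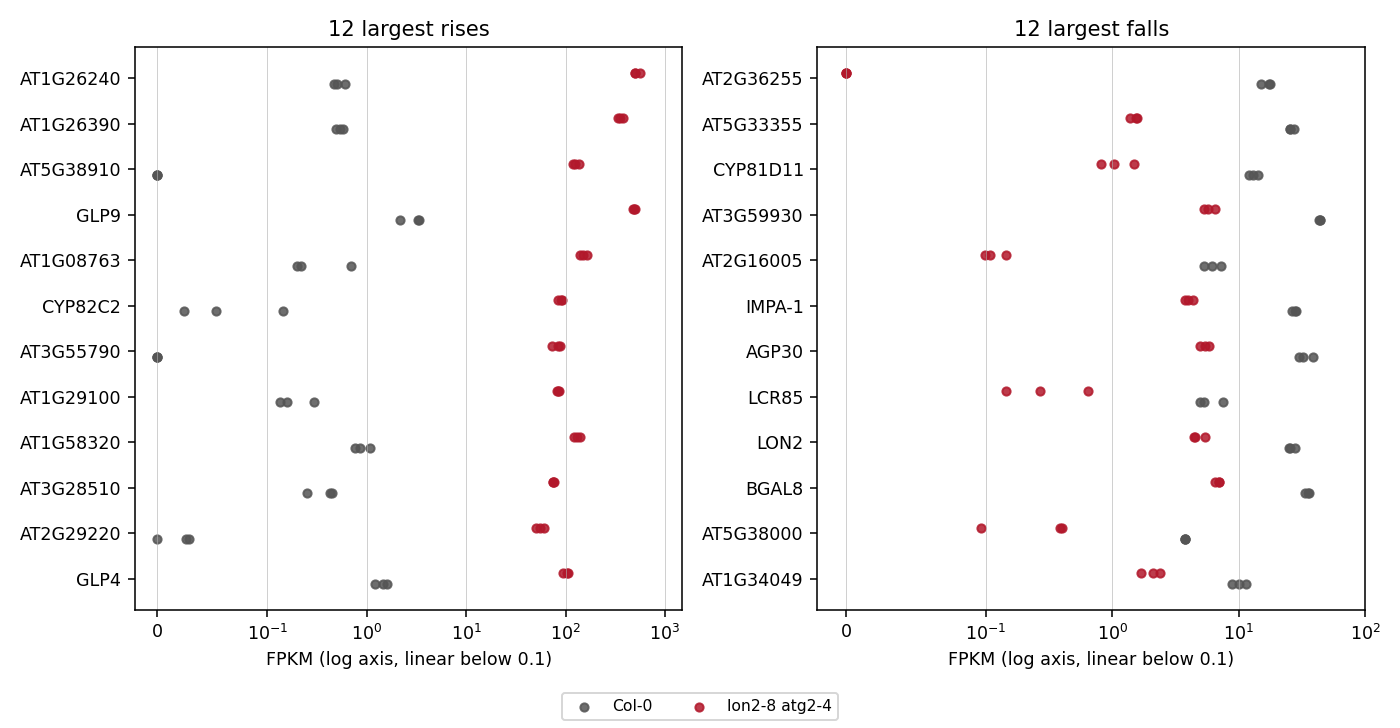
FPKM of every Col-0 (grey) and double mutant (red) library, 1 point each, for the 12 genes with the largest rise (left) and the 12 with the largest fall (right), on a log axis that is linear below 0.1. In none of the 24 genes do the libraries of the genotypes overlap, a condition under which these genes were chosen; AT5G38910 and AT3G55790 sit at 0 in Col-0 and AT2G36255 at 0 in the double mutant.

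None of the 12 was called higher in the double mutant than in atg2-4, and 4 were lower. AT2G29220 was at 86.6 ± 4.44 FPKM in atg2-4 and 55.2 ± 5.24 in the double mutant, a difference of −0.64 ± 0.0723 log2, adjusted p = 0.000175. GLP9 (−0.57 ± 0.0967 log2, adjusted p = 0.00314), AT1G58320 (−0.55 ± 0.0886 log2, adjusted p = 0.00222) and AT1G29100 (−0.38 ± 0.105 log2, adjusted p = 0.0418) were lower in the double mutant too. The other 8 did not pass this test, for which 8.88% of all genes passed. Its count of 1835 calls fell to between 1064 and 1359 when 1 double mutant library was left out. How single calls against atg2-4 fare then is not given, here or below. AT1G26390 differed from atg2-4 by 0.01 ± 0.0592 log2. This test shares the double mutant libraries with the comparison against Col-0, and the tests of atg2-4 and lon2-8 against Col-0 quoted below share the Col-0 libraries with it.

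By absolute level, EXT4, a cell wall extensin, gained a large amount of message, from 1417, 1475 and 1324 FPKM in Col-0 to 3262, 3224 and 2932 in the double mutant (1.16 ± 0.0669 log2, adjusted p = 1.29e-08). Here the double mutant was above atg2-4 as well (2546 ± 266 FPKM; 0.31 ± 0.0669 log2, adjusted p = 0.0137). The lipid transfer-like protein AZI1, known for priming of systemic immunity, went from 496 ± 29.6 to 997 ± 19.3 FPKM (1.01 ± 0.0441 log2, adjusted p = 8.56e-10). The extensin-like AT1G26250 rose from 64.4 ± 5.5 to 871 ± 52.0 FPKM (3.74 ± 0.0672 log2, adjusted p = 1.56e-13), and the uncharacterized AT1G26255, which overlaps it on the other strand, from 59.8 ± 4.38 to 821 ± 59.0. EXT3, overlapped by AT1G21313, rose by 0.21 ± 0.0426 log2 (adjusted p = 0.00112). The labels describe no step that marks strand, so reads of such partners cannot be told apart. Of 25 extensin or extensin-like genes tested, a family picked after the values were seen, 9 rose and 7 fell.

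Genes of salicylic acid synthesis and signalling rose almost as a block. The hormone salicylic acid is made from isochorismate and drives defence against biotrophic pathogens. Of 24 members tested 23 rose and 0 fell, with a median of 1.35 log2. PBS3, which joins glutamate to isochorismate on the way to salicylate, was at 0.396, 0.21 and 0.559 FPKM in the wild type and 28.0, 27.0 and 24.1 in the double mutant (4.31 ± 0.0968 log2, adjusted p = 1.41e-12). CBP60G, a transcription factor that turns on ICS1, was at 4.19, 4.53 and 4.17 FPKM in the wild type and 53.4, 54.0 and 51.8 in the double mutant (3.35 ± 0.0509 log2, adjusted p = 2.54e-14). ICS1 itself, isochorismate synthase, went from 3.93 ± 0.265 to 17.2 ± 1.26 FPKM (1.88 ± 0.0631 log2, adjusted p = 6.23e-11). The libraries of the genotypes did not overlap for any of these genes. The 1 member tested that did not pass was EDS5, a transporter of the plastid envelope needed for salicylate synthesis, at 7.71 ± 0.532 and 8.23 ± 0.106 FPKM (adjusted p = 0.317).

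Genes for enzymes that turn over salicylate rose too. DLO1, a salicylate hydroxylase, went from 0.782 ± 0.156 to 16.4 ± 0.249 FPKM (3.29 ± 0.0735 log2, adjusted p = 1.36e-12) and DMR6, another one, from 4.59 ± 0.238 to 13.0 ± 0.733 (1.33 ± 0.0576 log2, adjusted p = 7.8e-10). In the pipecolate branch, which makes the mobile immune signal N-hydroxypipecolic acid, ALD1 rose from 0.257 ± 0.0417 to 3.83 ± 0.0766 FPKM (1.94 ± 0.068 log2, adjusted p = 9.81e-11) and FMO1 from 1.06 ± 0.416 to 28.7 ± 0.565 (3.87 ± 0.116 log2, adjusted p = 2.04e-11). PR1, the classic salicylate marker, stayed a low message in spite of its rise, at 0.415 ± 0.158 FPKM in Col-0 and 5.08 ± 0.222 in the double mutant (2.11 ± 0.098 log2, adjusted p = 1.52e-09). PR5 was under the limit of 1 FPKM in 3 libraries and was not tested.

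Many of these genes were lower in the double mutant than in atg2-4. Of the 24 members 13 were lower than in atg2-4 and 0 higher, where 4.44% of all genes were lower. ALD1 was at 8.15, 7.55 and 7.72 FPKM in atg2-4 and 3.74, 3.88 and 3.86 in the double mutant (−0.87 ± 0.068 log2, adjusted p = 1.04e-05), with no overlap. WRKY70, a regulator of salicylate responses, was at 26.9, 26.8 and 25.9 FPKM in atg2-4 and 16.2, 17.2 and 16.4 in the double mutant (−0.64 ± 0.0697 log2, adjusted p = 0.000138). ICS1 did not pass this test (−0.01 ± 0.0631 log2, adjusted p = 0.927).

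Genes for indolic defence compounds were also high, and some exceeded atg2-4. The enzymes here turn tryptophan into camalexin, cyanogenic compounds and indolic glucosinolate products. Of 16 members 14 rose and 2 fell (1 without Col-0 library 2), with a median of 0.98 log2. CYP82C2, which hydroxylates indole cyanogenic intermediates, was at 0.0538, 0.0245 and 0.142 FPKM in the wild type and 91.9, 90.5 and 83.4 in the double mutant (6.38 ± 0.0924 log2, adjusted p = 1.61e-14), with only 8 fragments in the Col-0 libraries together. CYP71A12, which makes indole cyanohydrin, was at 3.1, 3.22 and 3.14 FPKM (Col-0), 109, 103 and 102 (atg2-4) and 164, 166 and 149 (double mutant), a change of 5.27 ± 0.0726 log2, adjusted p = 1.19e-14 against Col-0. The double mutant was above atg2-4 (0.60 ± 0.0726 log2, adjusted p = 0.000295), and the libraries of these genotypes did not overlap. CYP81F2, which modifies indolic glucosinolates, was higher than in atg2-4 as well (0.43 ± 0.0484 log2, adjusted p = 0.000175). In all 7 of 16 members were higher than in atg2-4 and 0 lower, where 4.44% of all genes were higher.

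Of the berberine bridge family, a group picked after the values were seen, 13 of 20 genes rose and 5 fell, and 9 rose at least 2-fold. Members of it such as FOX1 oxidise indole cyanohydrin or cell wall oligosaccharides. FOX1 rose from 3.27 ± 0.0154 to 31.4 ± 1.46 FPKM (2.92 ± 0.0828 log2, adjusted p = 1.2e-11), AT1G30730 from 18.4 ± 0.518 to 86.4 ± 3.84 and AT4G20830 from 65.2 ± 3.28 to 168 ± 6.4. AT1G26390, described above, belongs here too. Lectin kinases of the concanavalin A-like type, also picked after the values were seen, sit in the plasma membrane. Of 24 tested 17 rose and 2 fell (0 fell without Col-0 library 3 or double mutant library 1 or 2). Among the rises was AT2G29250, from 0.0106 ± 0.0184 to 37.8 ± 3.42 FPKM (5.26 ± 0.0689 log2, adjusted p = 9.01e-15). AT2G29220, described above, is another member.

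Among regulators, 35 of 60 WRKY transcription factors rose and 9 fell. WRKY proteins bind the W-box and include activators and repressors of immunity. WRKY59 went from 0.0245, 0 and 0.104 to 10.9, 12.9 and 11.2 FPKM (3.60 ± 0.0804 log2, adjusted p = 1.36e-12), WRKY46 from 1.75 ± 0.0772 to 13.6 ± 0.565 (2.40 ± 0.068 log2, adjusted p = 1.2e-11), and WRKY15, abundant already in Col-0, from 42.6 ± 1.26 to 78.2 ± 1.41 (0.86 ± 0.0345 log2, adjusted p = 3.42e-10). Of 27 cysteine-rich receptor-like kinases 19 rose and 3 fell, with CRK13 (1.33 ± 0.0592 log2, adjusted p = 9.84e-10) and CRK11 (1.28 ± 0.0586 log2, adjusted p = 1.28e-09) of smallest adjusted p. Of 59 NAC factors 28 rose and 4 fell, and ANAC087, known from programmed cell death in the root cap, went from 10.2 ± 0.61 to 30.5 ± 2.05 FPKM (1.49 ± 0.0708 log2, adjusted p = 1.91e-09). Detoxification families were divided. Tau class glutathione transferases held 7 rises and 11 falls in 25, UDP-glucosyltransferases 17 and 19 in 55, and cytochromes P450 49 and 55 in 157. Close copies in these families can share reads, and the sources used here do not say how the authors counted such reads.

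The sequence upstream of these genes is shown for CYP82C2, because it combines one of the largest rises with 3 copies of the W-box core TTGAC, counted on both strands and set in capitals below. The 300 bases before the annotated start of the gene were read from the RefSeq assembly TAIR10.1 at chr4:15462050-15462349, plus strand, and are printed 5′ to 3′. The sources used here do not name the authors' build, so the position belongs to the reference and the gene was matched by its identifier.
CYP82C2: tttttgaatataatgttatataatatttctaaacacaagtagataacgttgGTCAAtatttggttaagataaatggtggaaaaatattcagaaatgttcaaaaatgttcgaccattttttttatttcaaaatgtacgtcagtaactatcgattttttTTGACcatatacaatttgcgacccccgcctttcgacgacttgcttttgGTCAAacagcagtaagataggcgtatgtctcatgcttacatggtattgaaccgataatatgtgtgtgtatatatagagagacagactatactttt
The core stood in the same window of 429 of 643 genes (66.7%) that rose at least 2-fold, of 72 of 156 (46.2%) that fell at least 2-fold, and of 9700 of all 19129 protein-coding genes tested (50.7%). At least 3 copies stood before 12.9% of the risen genes, 1.92% of the fallen and 5.15% of all. Of the largest rises, 10 of 11 with a window held the core. In the salicylate list it was 13 of 24 (54.2%). These are counts of letters, and no binding was measured.

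**Figure D3:**
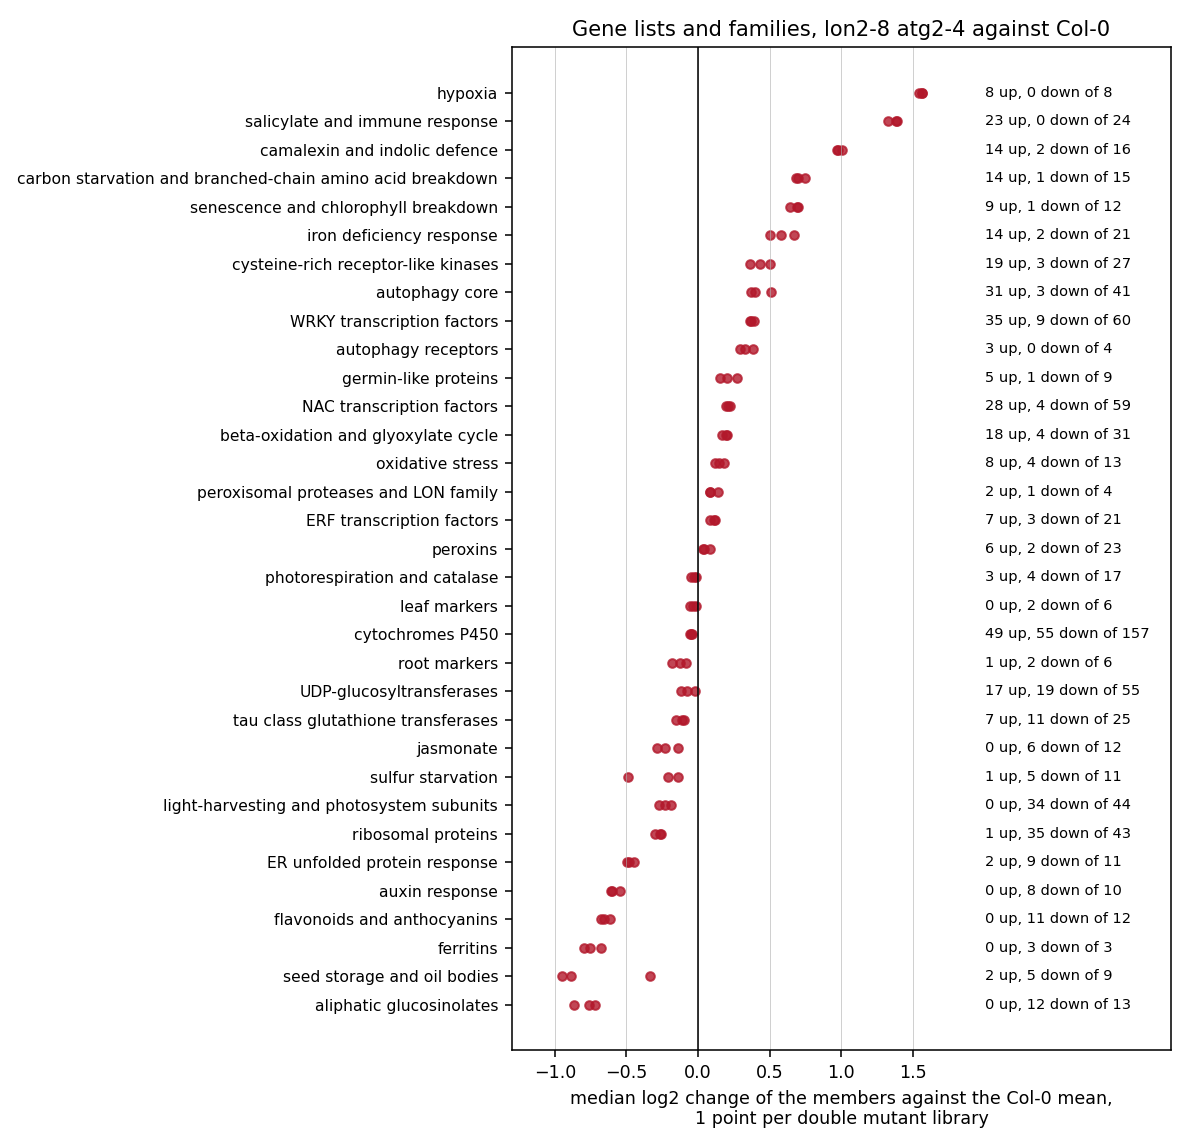
Median log2 change of each list or family in the double mutant against the mean of Col-0, 1 point for each of the 3 double mutant libraries, with the number of members that rose and fell among those tested at the right. Hypoxia and salicylate genes are at the top, aliphatic glucosinolates and seed storage genes at the bottom, and 1 double mutant library stands apart for seed storage and 1 for sulfur starvation.

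Genes of the autophagy machinery rose broadly. Of 41 core genes 31 rose and 3 fell, with a median of 0.40 log2. ATG8H, one of the ubiquitin-like proteins that are joined to the autophagosome membrane, was at 13.9, 12.6 and 14.9 FPKM in the wild type and 42.0, 38.6 and 41.5 in the double mutant (1.5 ± 0.0608 log2, adjusted p = 4.06e-10). ATG8A rose from 29.3 ± 2.02 to 58.2 ± 3.08 FPKM (0.97 ± 0.0532 log2, adjusted p = 8.03e-09), ATG8F from 54.4 ± 1.05 to 92.9 ± 3.02 (0.76 ± 0.0325 log2, adjusted p = 6.6e-10), and all 9 ATG8 genes rose, of which ATG8B (0.30 log2) and ATG8G (0.27) changed least. ATG8B did not pass without Col-0 library 1 or double mutant library 2 or 3 (adjusted p = 0.0911, 0.0536 and 0.0661), nor ATG8G without Col-0 library 3 or double mutant library 3 (0.0780 and 0.0606). In the initiating kinase complex ATG101 (1.31 ± 0.0727 log2, adjusted p = 8.67e-09), ATG1A (1.06 ± 0.0616 log2, adjusted p = 1.42e-08) and the scaffold ATG11 (0.81 ± 0.0423 log2, adjusted p = 4.51e-09) rose. The members that fell were ATG2, the protease gene ATG4A (−0.18 ± 0.0435 log2, adjusted p = 0.00306) and VPS38 (−0.21 ± 0.0666 log2, adjusted p = 0.0173), and the VPS38 call was lost without Col-0 library 1 or 2 or double mutant library 3 (adjusted p = 0.0729, 0.0598 and 0.0501).

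The receptor NBR1, which brings ubiquitin-tagged cargo to ATG8, was at 55.8, 55.2 and 56.2 FPKM in the wild type and 136, 129.7 and 132 in the double mutant (1.24 ± 0.0300 log2, adjusted p = 2.85e-12). It was slightly above its level in atg2-4 (0.11 ± 0.0300 log2, adjusted p = 0.0454). ATI2 rose as well (0.46 ± 0.0383 log2, adjusted p = 4.88e-07) and ATI1 by 0.21 log2 (adjusted p = 0.00126), and the proteasome subunit RPN10, at 39.1 ± 0.121 and 39.4 ± 1.37 FPKM, did not pass (adjusted p = 0.891). Of the core genes 1 was higher than in atg2-4, ATG8F (0.12 ± 0.0325 log2, adjusted p = 0.034), and 1 lower, ATG8H (−0.25 ± 0.0608 log2, adjusted p = 0.0238).

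Peroxisome biogenesis genes moved little. Of 23 peroxins, which import proteins into the organelle or divide it, 6 rose and 2 fell (0 fell without Col-0 library 3), fewer than the 52.0% of all genes, and the median change was 0.05 log2. PEX19A, a chaperone for membrane proteins, had the largest change of the list (9.63 ± 0.308 to 14.5 ± 0.349 FPKM, 0.54 ± 0.0567 log2, adjusted p = 3.83e-06), followed by the import pore protein PEX13 (0.30 ± 0.0422 log2, adjusted p = 5.64e-05). PEX3B fell (−0.26 ± 0.0759 log2, adjusted p = 0.0111), a call lost without Col-0 library 3 or double mutant library 3 (adjusted p = 0.0560 and 0.0525). The other peroxisomal proteases DEG15 (0.16 ± 0.0503 log2, adjusted p = 0.0169) and PXM16 (0.17 ± 0.0459 log2, adjusted p = 0.00634) rose by little, and the DEG15 call was lost without Col-0 library 1 or double mutant library 2 (adjusted p = 0.0682 and 0.0530). LON1, the protease of mitochondria, was at 7.78 ± 0.271 and 8.09 ± 0.346 FPKM (adjusted p = 0.446), and LON3 and LON4 were under the filter.

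Of 31 genes of β-oxidation and the glyoxylate cycle 18 rose and 4 fell, with a median of 0.19 log2, and 2 fell without Col-0 library 2 or 3. ICL, isocitrate lyase, which lets seedlings make sugar from stored fat, was at 11.0, 9.27 and 7.9 FPKM in the wild type and 81.3, 81.0 and 82.2 in the double mutant (3.0 ± 0.0908 log2, adjusted p = 2.19e-11). In atg2-4 it had 43.7, 53.8 and 51.3 and in lon2-8 46.0, 47.4 and 45.7, so every double mutant library lay above every library of the other genotypes. The double mutant passed against atg2-4 (0.71 ± 0.0908 log2, adjusted p = 0.000484) and against lon2-8 (0.80 ± 0.0908 log2, adjusted p = 8.42e-06). On the log2 scale the combination was below the sum of both single effects (interaction −1.49 ± 0.128 log2, adjusted p = 1.08e-05), as for 8 of the 31 genes, against 6.08% of all. Its partner MLS, malate synthase, did not pass, at 1.99, 1.94 and 1.82 FPKM in the wild type and 2.35, 1.77 and 2.15 in the double mutant (adjusted p = 0.5), with 10.7 ± 0.663 in lon2-8. Acyl-CoA oxidases ACX2 (0.65 ± 0.0335 log2, adjusted p = 4.4e-09) and ACX4 (0.64 ± 0.0352 log2, adjusted p = 8.01e-09), which open the β-oxidation of long and short chains, and the citrate synthase CSY3 (0.55 ± 0.0413 log2, adjusted p = 1.67e-07) rose.

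The enzymes of photorespiration, which recover carbon from glycolate across chloroplast, peroxisome and mitochondrion, changed little against Col-0. Of 17 genes 3 rose and 4 fell, and the median was −0.03 log2. In atg2-4 13 of them were lower and 1 higher than in the same Col-0 libraries, where 27.2% of all genes were lower and 21.3% higher (48.5% in all). In lon2-8 9 were higher and 0 lower, where 9.06% of all genes were higher and 14.1% lower (23.1% in all). Tested directly, 12 of 17 were higher in the double mutant than in atg2-4, against 4.44% of all genes, and 9 were lower than in lon2-8, against 24.6%. The glutamate glyoxylate aminotransferase GGT1 was at 352, 357 and 368 FPKM (Col-0), 314, 305 and 299.7 (atg2-4) and 353, 364 and 371 (double mutant), higher than in atg2-4 (0.24 ± 0.0303 log2, adjusted p = 0.000385) and with no call against Col-0 (adjusted p = 0.712). CAT2, the main leaf catalase, which removes hydrogen peroxide, was above atg2-4 and below Col-0. It was at 359.5, 357 and 372 FPKM (Col-0), 235, 228 and 219.7 (atg2-4), 513, 517 and 514 (lon2-8) and 279, 280.5 and 284 (double mutant), a change of −0.37 ± 0.0299 log2, adjusted p = 3.76e-07 against Col-0, and the 4 genotypes did not overlap.

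Other enzymes of peroxide and superoxide removal were divided. FSD1, an iron superoxide dismutase, fell from 25.1, 27.1 and 26 to 6.91, 7.01 and 7.52 FPKM (−1.73 ± 0.0574 log2, adjusted p = 5.56e-11). APX1, the cytosolic ascorbate peroxidase, fell from 132, 135 and 135 to 81.9, 77.2 and 77.4 (−0.76 ± 0.0452 log2, adjusted p = 1.73e-08), while lon2-8 was at 273 ± 10.3 (interaction −1.08 ± 0.0639 log2, adjusted p = 7.79e-07). The stress zinc finger ZAT12 rose (20.3 ± 1.12 to 36.3 ± 0.767 FPKM, 0.81 ± 0.0609 log2, adjusted p = 1.77e-07), as did the cell death suppressor BAP1 (1.04 ± 0.0681 log2, adjusted p = 4.44e-08). Of 13 oxidative stress genes 8 rose and 4 fell.

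Most genes that mark a lack of sugar rose. The list joins dark-induced (DIN) genes with the mitochondrial breakdown of branched-chain amino acids, a fuel of starved cells. Of 15 members 14 rose and 1 fell against Col-0, with a median of 0.73 log2. Against atg2-4 10 were higher and 0 lower, where 4.44% of all genes were higher, and against lon2-8 12 were higher and 0 lower, where 25.3% were higher and 49.9% passed in either direction. BCKDH-E1A, a subunit of the branched-chain keto acid dehydrogenase, was at 2.57, 3.49 and 3.18 FPKM (Col-0), 6.58, 6.87 and 6.42 (atg2-4), 4.95, 4.53 and 4.37 (lon2-8) and 10.9, 11.1 and 11.2 (double mutant), a change of 1.58 ± 0.076 log2, adjusted p = 2.18e-09 against Col-0. The genotypes did not overlap. STP1, a sugar importer repressed by sugar, was at 38.9, 38.4 and 39.4 FPKM (Col-0), 65.6, 70.0 and 66.8 (atg2-4), 48.6, 50.7 and 43.0 (lon2-8) and 93.9, 93.9 and 93.5 (double mutant), a change of 1.25 ± 0.0497 log2, adjusted p = 3.21e-10 against Col-0, again with the double mutant on top. The raffinose synthase DIN10 rose from 218 ± 1.03 to 352 ± 2.18 FPKM (0.69 ± 0.0268 log2, adjusted p = 2.57e-10) and passed against atg2-4 (0.51 ± 0.0268 log2, adjusted p = 4.39e-07). The trehalose phosphate synthase gene TPS8 was the member that fell (−0.28 ± 0.0413 log2, adjusted p = 8.84e-05).

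SEN1, a dark and senescence marker, was at 23.7, 21.5 and 23.4 FPKM (Col-0), 37.3, 33.2 and 32.6 (atg2-4), 35.4, 33.7 and 34.2 (lon2-8) and 61.3, 71.8 and 67.6 (double mutant), a change of 1.51 ± 0.0625 log2, adjusted p = 4.88e-10 against Col-0. Its difference from atg2-4 (0.94 ± 0.0625 log2, adjusted p = 3.3e-06) and its interaction (0.37 ± 0.0884 log2, adjusted p = 0.0149) passed. Of 12 senescence and chlorophyll breakdown genes 9 rose and 1 fell, a fall that was not called without Col-0 library 1 or 3 or double mutant library 2 or 3. NYE1, which takes the magnesium out of chlorophyll, went from 8.95 ± 0.639 to 27.4 ± 0.541 FPKM (1.51 ± 0.0594 log2, adjusted p = 2.82e-10), the cytosolic glutamine synthetase GLN1;4 from 4.01 ± 0.659 to 15.2 ± 0.468 (1.70 ± 0.0783 log2, adjusted p = 1.34e-09) and the senescence factor ORE1 from 26.6 ± 1.08 to 49.3 ± 0.875 (0.86 ± 0.046 log2, adjusted p = 5.86e-09). NYE1, GLN1;4 and ORE1 did not pass against atg2-4 (adjusted p = 0.0895, 0.73 and 0.321). Threonine aldolase THA1, which breaks threonine down, was among the 8 genes with the largest rise over atg2-4, at 0.68, 0.747 and 0.839 FPKM (Col-0), 1.09, 1.13 and 1.02 (atg2-4) and 3.85, 3.88 and 3.88 (double mutant), a change of 1.23 ± 0.0952 log2, adjusted p = 1.03e-05.

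All 8 genes of the hypoxia list rose in the double mutant, with a median of 1.56 log2. The labels name no low-oxygen treatment. These genes are switched on by ethylene response factors that are destroyed while oxygen is present, and serve fermentation and oxygen sensing. HB1, a plant haemoglobin that scavenges nitric oxide, was at 11.5, 11.0 and 10.0 FPKM (Col-0), 31.8, 35.2 and 33.5 (atg2-4), 22.3, 25.3 and 21.4 (lon2-8) and 55.5, 54.4 and 51.9 (double mutant), a change of 2.21 ± 0.0639 log2, adjusted p = 1.42e-11 against Col-0. The lowest double mutant library lay above the highest library of each other genotype. PDC1, pyruvate decarboxylase of ethanol fermentation, was at 5.01, 5.83 and 4.68 FPKM in the wild type and 22.3, 22.8 and 20.5 in the double mutant (1.89 ± 0.113 log2, adjusted p = 1.84e-08). PCO2, an oxygen-sensing cysteine oxidase, was at 7.15, 6.99 and 7.15 FPKM in the wild type and 26.9, 27.2 and 26.3 in the double mutant (1.78 ± 0.0577 log2, adjusted p = 4.46e-11). ADH1, alcohol dehydrogenase, went from 5.68 ± 1.16 to 17.2 ± 0.522 FPKM (1.47 ± 0.124 log2, adjusted p = 5.39e-07). The smallest rise was that of the sucrose synthase SUS4 (0.26 ± 0.093 log2, adjusted p = 0.0335), and its call was lost without Col-0 library 1 or 3 or double mutant library 1 or 2 (adjusted p = 0.0624 to 0.134).

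All 8 were also higher than in atg2-4, where 4.44% of all genes were. Against lon2-8 5 were higher and 1 lower, where 25.3% of all genes were higher and 24.6% lower. In each single mutant 6 of the 8 rose and 0 fell against Col-0. Of all genes 21.3% rose in atg2-4 and 9.06% in lon2-8. On the log2 scale 5 of the 8 were below the sum of both single effects and 1 above it. Of all genes 6.08% were below that sum and 7.10% above it. The differences from atg2-4 ran from 0.21 log2 for the repressor LBD41 (adjusted p = 0.0219) to 0.81 for PCO1 (adjusted p = 0.000143). HRA1 was the member lower than in lon2-8 (54.4 ± 1.58 FPKM there, 45.9 ± 2.27 in the double mutant; −0.24 ± 0.0453 log2, adjusted p = 0.000614). Of the ethylene response factors, ERF71, an activator of these genes, went from 0.193, 0.643 and 0.408 to 1.79, 2.84 and 1.51 FPKM (1.09 ± 0.156 log2, adjusted p = 6.42e-05).

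**Figure D4:**
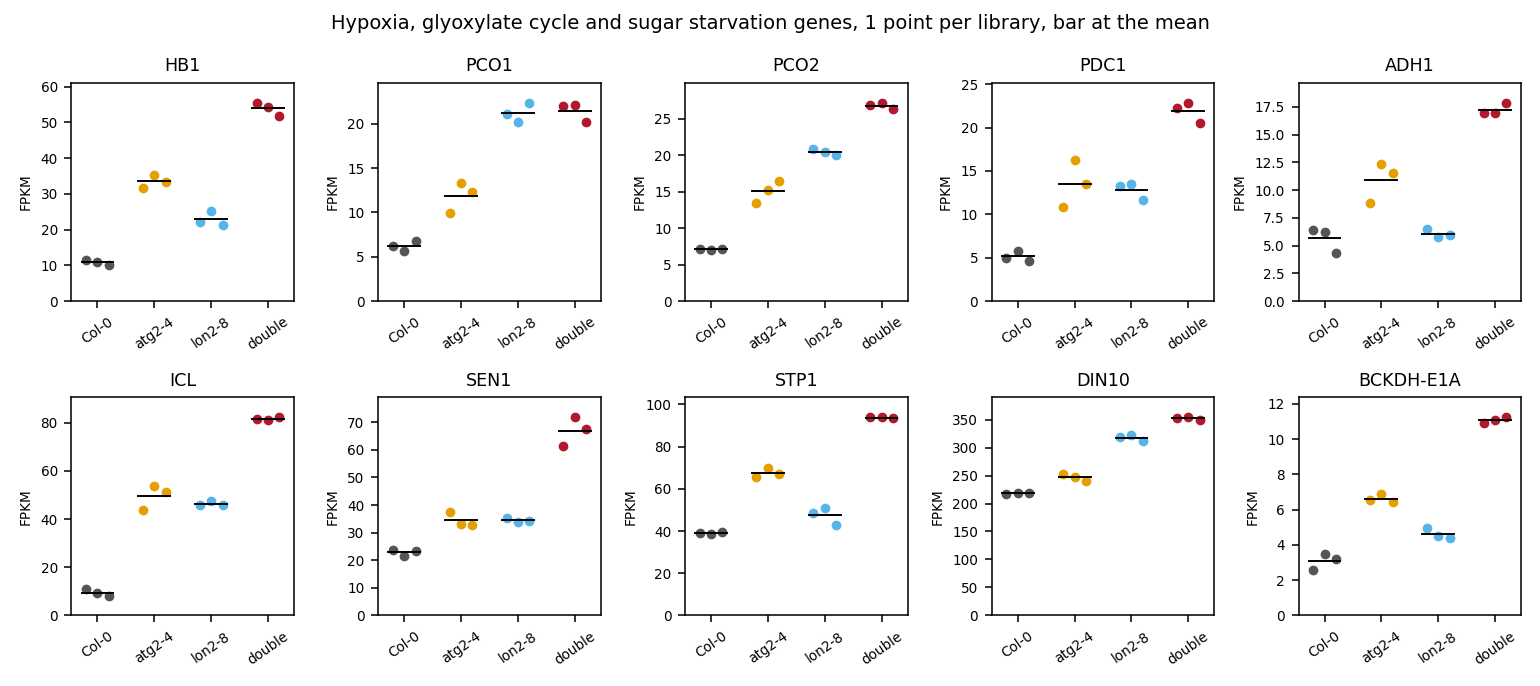
FPKM of 10 hypoxia, glyoxylate cycle and starvation genes in every library of the 4 genotypes, 1 point per library with a bar at the mean, each axis from 0. The double mutant is above Col-0 and atg2-4 in every panel; PCO1, at 21.4 ± 1.04 FPKM, overlaps lon2-8, at 21.2 ± 1.09.

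Several genes of seed maturation, which seedlings normally silence, were higher in the double mutant than in the other 3 genotypes, at low levels. PER1, a peroxiredoxin of dormant seeds, was at 1.51, 2.34 and 2.33 FPKM (Col-0), 2.85, 4.63 and 3.73 (atg2-4), 1.44, 1.05 and 1.42 (lon2-8) and 10.3, 12.2 and 11.7 (double mutant), a change of 2.03 ± 0.141 log2, adjusted p = 8.38e-08 against Col-0. It had the largest rise over atg2-4 of all genes that passed both tests and did not overlap Col-0 (1.41 ± 0.141 log2, adjusted p = 8.13e-05). OLEO1, an oleosin that coats oil bodies, was at 1.82, 1.65 and 3.35 FPKM (Col-0), 3.02, 2.53 and 2.73 (atg2-4), 1.46, 0.947 and 1.31 (lon2-8) and 7.6, 10.0 and 6.56 (double mutant), a change of 1.49 ± 0.177 log2, adjusted p = 1.28e-05 against Col-0. OLEO2 was at 0.743, 1.01 and 1.00 FPKM in the wild type and 4.04, 5.74 and 4.71 in the double mutant (1.59 ± 0.162 log2, adjusted p = 3.07e-06), and TIP3;1, a water channel of the seed storage vacuole, at 0.858, 1.17 and 1.04 in the wild type and 3.55, 5.8 and 3.89 in the double mutant (1.4 ± 0.138 log2, adjusted p = 2.3e-06). For these genes the lowest double mutant library lay above all 9 libraries of the other genotypes. The interaction passed for each, at 1.81 log2 for PER1 (adjusted p = 7.36e-05), 1.77 for OLEO1 (adjusted p = 0.000501), 1.42 for OLEO2 (adjusted p = 0.00135) and 1.26 for TIP3;1 (adjusted p = 0.000961), where 7.10% of all genes had a positive interaction.

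Storage proteins of the seed did not go the same way. Of 9 seed storage and oil body genes tested, OLEO1 and OLEO2 were the 2 that rose and 5 fell, all of them albumins or the cruciferin CRC. The SESA2 fall was not called without Col-0 library 1 or 3 or double mutant library 1 or 3 (adjusted p = 0.0530 to 0.0779), and SESA5 was called higher when only the 2 genotypes were fitted (0.43 log2, adjusted p = 0.0176). SESA4, a 2S albumin, was at 2.77, 2.37 and 2.94 FPKM in the wild type and 0.779, 0.977 and 0.618 in the double mutant (−1.04 ± 0.115 log2, adjusted p = 6.35e-06), and SESA3 at 4.97, 4.31 and 9.37 in the wild type and 0.907, 0.729 and 1.19 in the double mutant (−1.84 ± 0.258 log2, adjusted p = 5.77e-05). The share of the 9 members that fell, like the median of the list, rests on genes at low levels. Of 7 oleosins tested, a family picked after the values were seen, 4 rose and 1 fell against Col-0. Against atg2-4 3 were higher and 0 lower. The summed FPKM of the family did not rise, at 234 to 239 in Col-0 and 217 to 222 in the double mutant. The late embryogenesis abundant proteins protect drying cells, and this family was picked after the values were seen. Of 27 tested 17 rose and 7 fell against Col-0, and 9 were higher and 1 lower than in atg2-4, against 4.44% of all genes in each direction. LEA18 was at 3.11, 4.02 and 2.69 FPKM (Col-0), 5.37, 6.33 and 4.69 (atg2-4), 5.38, 5.41 and 4.66 (lon2-8) and 12.1, 12.6 and 12.8 (double mutant), a change of 1.67 ± 0.11 log2, adjusted p = 4.63e-08 against Col-0, with no overlap of the double mutant and any other genotype. AT3G02480 went from 5.52 ± 0.795 to 30.8 ± 2.1 FPKM (2.29 ± 0.114 log2, adjusted p = 3.1e-09). Whether the rise came from all seedlings or from a few of them was not tested.

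Other genes with the largest rises over atg2-4 lay outside seed maturation. AT5G59170, an extensin-like protein, was at 2.63, 2.96 and 4.67 FPKM (Col-0), 1.47, 1.7 and 2.09 (atg2-4), 1.36, 0.527 and 0.835 (lon2-8) and 5.94, 7.69 and 5.19 (double mutant), a change of 1.39 ± 0.188 log2, adjusted p = 0.000701 against atg2-4 and 0.73 ± 0.188 log2, adjusted p = 0.00533 against Col-0. All libraries of each single mutant lay below those of Col-0, and all of the double mutant above them. PRX52, a class III peroxidase of the cell wall, rose from 0.656 ± 0.261 FPKM in Col-0 to 3.59 ± 0.0916 (1.48 ± 0.132 log2, adjusted p = 8.71e-07), against 1.13 ± 0.357 in atg2-4. Lower than atg2-4, though far above Col-0, was AT4G33720, a secreted protein of the PR1 superfamily, at 0, 0.247 and 0.216 FPKM (Col-0), 21.5, 25.1 and 22.5 (atg2-4) and 12.0, 10.5 and 10.8 (double mutant), a change of −0.99 ± 0.101 log2, adjusted p = 9.15e-05 against atg2-4.

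Upstream sequences of OLEO1 and PER1 are shown because abscisic acid and seed factors are known to act on oleosin genes through the G-box CACGTG. The window is again the 300 bases before the start in RefSeq TAIR10.1, at chr4:12900130-12900429, plus strand, and chr1:17780129-17780428, plus strand. Capitals mark the G-box and, in OLEO1, also a W-box core TTGAC that overlaps the second G-box.
OLEO1: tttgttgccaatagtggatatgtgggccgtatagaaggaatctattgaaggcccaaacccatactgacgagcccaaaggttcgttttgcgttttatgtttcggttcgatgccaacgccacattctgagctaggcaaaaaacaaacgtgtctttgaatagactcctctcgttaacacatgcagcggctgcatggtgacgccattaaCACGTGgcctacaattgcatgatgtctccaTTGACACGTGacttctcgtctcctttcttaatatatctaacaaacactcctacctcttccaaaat
PER1: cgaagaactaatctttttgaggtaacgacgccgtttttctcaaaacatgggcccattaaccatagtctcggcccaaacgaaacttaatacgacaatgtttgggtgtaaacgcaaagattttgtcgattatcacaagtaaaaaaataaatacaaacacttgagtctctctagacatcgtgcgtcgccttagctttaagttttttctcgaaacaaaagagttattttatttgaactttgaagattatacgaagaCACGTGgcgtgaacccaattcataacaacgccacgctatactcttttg
OLEO1 held 2 copies of the G-box and PER1 held 1. The G-box stood in the window of 1501 of 19129 protein-coding genes tested (7.85%), of 35 of 643 that rose at least 2-fold (5.44%) and of 2 of the 7 protein-coding genes among the 8 with the largest rise over atg2-4, which are the pair shown. OLEO2 and TIP3;1 held none in this window.

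Several genes strongly raised in lon2-8 were at or near the Col-0 level in the double mutant. AT1G73120, an F-box protein, was at 4.17, 3.36 and 3.27 FPKM (Col-0), 58.8, 63.2 and 61.7 (lon2-8) and 4.71, 4.61 and 4.31 (double mutant). ELIP2, an early light-induced protein that binds pigment under light stress, was at 5.23, 6.75 and 6.87 FPKM (Col-0), 51.3, 50.5 and 53.0 (lon2-8) and 6.92, 5.01 and 4.93 (double mutant). The cellulase-like GH9B15 was at 1.22, 0.909 and 0.781 FPKM (Col-0), 7.99, 7.86 and 7.42 (lon2-8) and 0.683, 0.979 and 0.598 (double mutant). In all of them the lon2-8 libraries lay far above both other genotypes. GH9B15 overlaps WRKY29 on the other strand. Against Col-0 the double mutant showed −0.14 ± 0.106 log2, adjusted p = 0.279 for ELIP2 and −0.17 ± 0.107 log2, adjusted p = 0.208 for GH9B15, which did not pass (ELIP2 was called lower without double mutant library 1, −0.28 log2, adjusted p = 0.0187), and a small rise for AT1G73120 (0.27 ± 0.0926 log2, adjusted p = 0.0248) that was lost without Col-0 library 2 or 3 or double mutant library 1 or 2 (adjusted p = 0.0612 to 0.0938). The interaction was −3.36, −2.5 and −2.16 log2 for AT1G73120, ELIP2 and GH9B15, and passed in each.

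**Figure D5:**
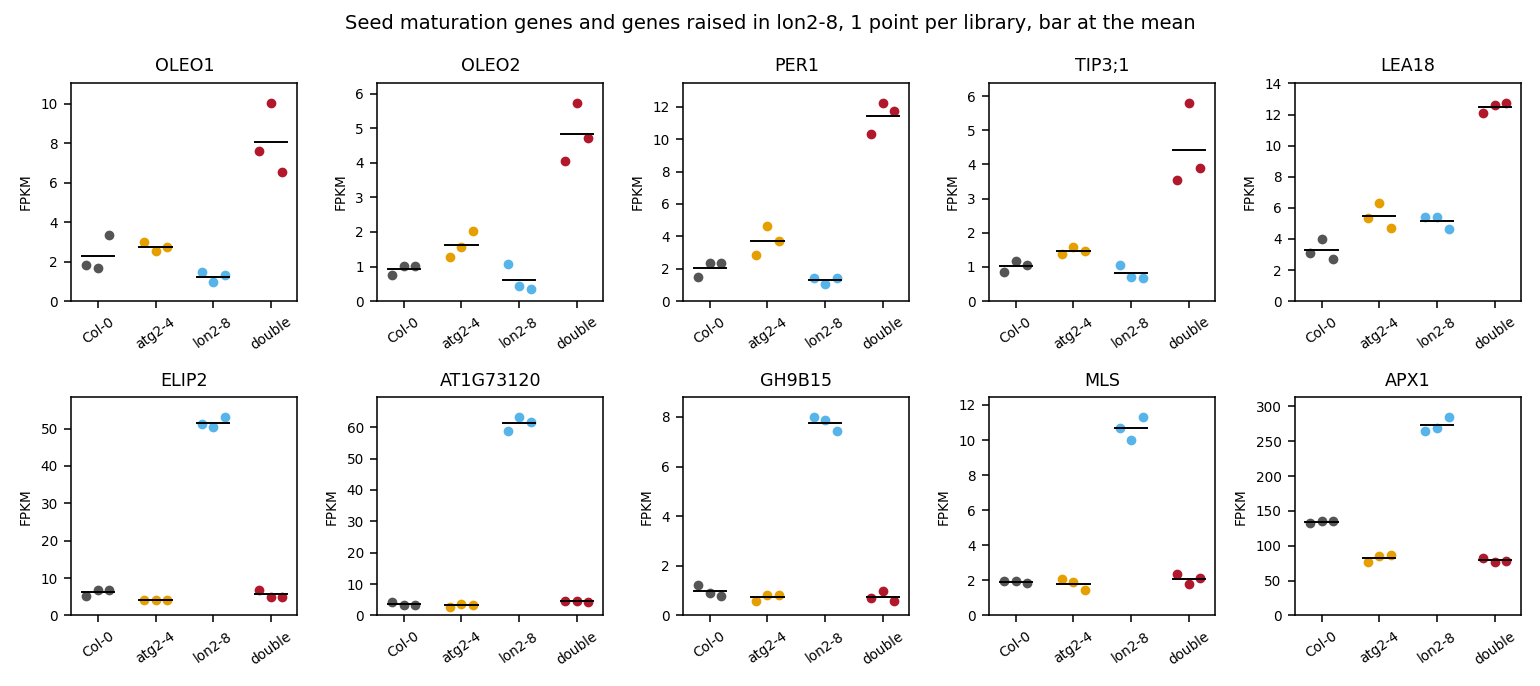
FPKM of 5 seed maturation genes (top row) and of 5 genes that are high in lon2-8 (bottom row) in every library of the 4 genotypes, 1 point per library with a bar at the mean, each axis from 0. In the top row the double mutant stands above the other genotypes; in the bottom row it lies near atg2-4, and near Col-0 except for APX1, where it is lower.

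Most iron deficiency genes rose. Of 21 members, which serve iron uptake and its control, 14 rose and 2 fell, and the median was 0.51 log2. BHLH100, a bHLH factor of subgroup Ib, was at 10.9, 9.9 and 11.0 FPKM (Col-0), 47.8, 46.3 and 43.9 (atg2-4), 5.22, 4.91 and 5.11 (lon2-8) and 43.9, 44.0 and 45.3 (double mutant), a change of 1.97 ± 0.047 log2, adjusted p = 2.49e-12 against Col-0. BHLH38 (1.78 ± 0.0654 log2, adjusted p = 1.54e-10) and BHLH39 (1.78 ± 0.063 log2, adjusted p = 1.04e-10) rose likewise. IMA2, a peptide that raises iron uptake, went from 9.69 ± 0.77 to 36.9 ± 2.23 FPKM (1.83 ± 0.0851 log2, adjusted p = 1.56e-09), and the coumarin enzyme F6H1 from 28.9 ± 1.29 to 80.9 ± 3.08 (1.45 ± 0.0485 log2, adjusted p = 5.96e-11). The uptake carrier IRT1 rose less (40.6 ± 0.798 to 56.1 ± 9.69 FPKM, 0.44 ± 0.102 log2, adjusted p = 0.00281), and FIT, the master factor of uptake in roots, fell (−0.92 ± 0.0731 log2, adjusted p = 2.84e-07). In atg2-4 15 of 21 members rose and 2 fell against Col-0, where 21.3% and 27.2% of all genes did. Against atg2-4 the double mutant was higher for 0 and lower for 3, where 4.44% of all genes were in each direction. BHLH100 did not pass this test (−0.05 ± 0.047 log2, adjusted p = 0.576). In lon2-8 16 members were lower than in the same Col-0 libraries, where 14.1% of all genes were. Of the 21, 12 had a positive interaction, against 7.10% of all genes.

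The ferritins, which store iron, fell, all 3 of 3 tested. FER1 was at 35.8, 33.5 and 36.6 FPKM in the wild type and 14.9, 14.9 and 15.9 in the double mutant (−1.16 ± 0.0567 log2, adjusted p = 2.46e-09), with no overlap. Its level was 14.8 ± 1.35 FPKM in atg2-4 and 65.6 ± 1.1 in lon2-8. Sulfate reduction genes also fell, and here the double mutant was below atg2-4. APR3, an APS reductase that feeds cysteine synthesis, was at 55.7, 59.3 and 56.6 FPKM (Col-0), 50.5, 48.4 and 48.7 (atg2-4), 26.5, 27.0 and 29.1 (lon2-8) and 28.6, 29.4 and 27.8 (double mutant), a change of −0.97 ± 0.0419 log2, adjusted p = 7.14e-10 against Col-0 and −0.76 ± 0.0419 log2, adjusted p = 5e-07 against atg2-4. The double mutant overlapped lon2-8 and not the other genotypes. APR1 (−0.84 ± 0.0514 log2, adjusted p = 2.34e-08), APR2 (−0.88 ± 0.0449 log2, adjusted p = 3.91e-09) and the sulfur marker SDI2 (−1.39 ± 0.0692 log2, adjusted p = 3.01e-09) fell too, and of 11 sulfur starvation genes 1 rose and 5 fell, near the 52.0% of all genes, and 0 rose without Col-0 library 3 or double mutant library 1 or 3. APR3 overlaps ATG8A on the other strand, whose change had the opposite sign.

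The largest falls were led by small secreted peptides. AT2G36255, a defensin-like peptide, was at 14.9, 17.7 and 17.4 FPKM in the wild type and had no fragment in the double mutant, which makes it at least 57.1-fold lower against a floor of 3 fragments in each library. AT5G33355, another one, went from 25.4, 27.2 and 25.6 to 1.54, 1.37 and 1.57 FPKM (−3.44 ± 0.057 log2, adjusted p = 6.49e-14), and AT3G59930 from 43.2, 44.2 and 43.8 to 5.75, 5.27 and 6.45 (−2.72 ± 0.0748 log2, adjusted p = 9.43e-12). The groups were apart in each. Of 22 defensin and defensin-like genes, a family picked after the values were seen, 14 fell and 4 rose, and the rises included AT1G13609, from 17.9 ± 0.77 to 101 ± 6.98 FPKM (2.43 ± 0.0586 log2, adjusted p = 2.65e-12). In atg2-4 12 of the 22 fell and 3 rose against Col-0. Outside this family, the P450 CYP81D11 fell from 12.0, 12.9 and 14.1 to 0.808, 1.02 and 1.47 FPKM (−2.75 ± 0.0985 log2, adjusted p = 1.16e-10) and the root arabinogalactan protein AGP30 from 33.5 ± 4.57 to 5.37 ± 0.446 (−2.43 ± 0.0858 log2, adjusted p = 1.03e-10). They were at 0.956 ± 0.11 and 4.97 ± 0.351 FPKM in atg2-4, and neither passed against it (adjusted p = 0.627 and 0.572).

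Most genes for aliphatic glucosinolates and for flavonoids fell. Aliphatic glucosinolates are methionine-derived defence compounds, and of 13 genes for them 12 fell and 0 rose, with a median of −0.81 log2. CYP79F2, which makes aldoximes from chain-elongated methionine, was at 20.9, 21.9 and 21.8 FPKM in the wild type and 9.77, 10.0 and 9.72 in the double mutant (−1.05 ± 0.0437 log2, adjusted p = 4.84e-10), and IMD1, of the chain elongation cycle, at 53.9, 55.8 and 52.8 in the wild type and 26.1, 26.2 and 26.7 in the double mutant (−1.01 ± 0.0385 log2, adjusted p = 2.06e-10). Of 12 flavonoid and anthocyanin genes 11 fell and 0 rose. FLS1, flavonol synthase, went from 39.1, 38.0 and 36.3 to 14.3, 11.8 and 12.8 FPKM (−1.48 ± 0.0721 log2, adjusted p = 2.46e-09), and the flavonol regulator MYB12 from 2.18 ± 0.238 to 0.922 ± 0.15 (−0.73 ± 0.0862 log2, adjusted p = 1.29e-05). Double mutant and Col-0 libraries did not overlap for any of the 4 genes named. In atg2-4 12 of the 13 and 12 of the 12 fell against Col-0, where 27.2% of all genes did. Against atg2-4 the double mutant was higher for 2 glucosinolate genes and lower for 0, and no flavonoid gene passed. In lon2-8 7 glucosinolate genes fell and 0 rose, while 4 flavonoid genes rose and 0 fell. Of all genes 14.1% fell and 9.06% rose there.

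Growth-related lists fell as well. Of 43 ribosomal protein genes with RPL, RPS or RPP symbols 35 fell and 1 rose, with a median of −0.28 log2. RPS6 went from 137 ± 0.434 to 86.3 ± 2.05 FPKM (−0.66 ± 0.0308 log2, adjusted p = 1.56e-09). Of 44 light-harvesting and photosystem genes 34 fell and 0 rose, led by LHCB2.3 (211 ± 4.38 to 121 ± 8.53 FPKM, −0.80 ± 0.044 log2, adjusted p = 8.34e-09). Large losses in FPKM lay here too. LHCB1.3, a chlorophyll-binding antenna protein, went from 8534, 8751 and 8591 to 7058, 6802 and 7121 FPKM (−0.30 ± 0.036 log2, adjusted p = 1.31e-05) and the photosystem I subunit PSAF from 1361 ± 35.5 to 955 ± 26.9 (−0.51 ± 0.0371 log2, adjusted p = 1.25e-07). LHCB1.3 has close copies such as CAB2, so their values may not be separate. In atg2-4 32 of the 43 ribosomal and 35 of the 44 photosystem genes fell against Col-0, where 27.2% of all genes did. Against atg2-4 the double mutant was higher for 1 ribosomal gene and lower for 4, and for 3 and 3 photosystem genes. Of all genes 4.44% passed in each direction.

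Auxin response genes, early targets of the growth hormone, showed 8 falls and 0 rises in 10, with IAA1 at 25.3, 26.5 and 23.6 FPKM in the wild type and 11.0, 13.7 and 12.0 in the double mutant (−0.99 ± 0.0789 log2, adjusted p = 3.07e-07). GH3.3, which conjugates auxin, fell from 3.7 ± 0.745 to 1.32 ± 0.0574 FPKM (−1.0 ± 0.0947 log2, adjusted p = 1.51e-06). In atg2-4 9 of the 10 auxin response genes fell and 0 rose against Col-0, where 27.2% of all genes fell. Against atg2-4 the double mutant was higher for 1 of them and lower for 0. Of 12 jasmonate genes 6 fell and 0 rose, among them the synthesis gene AOS (−0.54 ± 0.0472 log2, adjusted p = 7.84e-07) and the regulator MYC2 (−0.61 ± 0.0519 log2, adjusted p = 5.58e-07). The share of jasmonate genes called in either direction was near the 52.0% of all genes, and 30.1% of all genes fell. Chaperones of the endoplasmic reticulum fell, and most were below atg2-4. Of 11 unfolded protein response genes 9 fell and 2 rose against Col-0, and 7 were lower and 0 higher than in atg2-4, where 4.44% of all genes were lower. BIP1, the main Hsp70 of the reticulum, was at 91.0, 92.0 and 89.6 FPKM (Col-0), 65.3, 63.7 and 66.0 (atg2-4) and 56.2, 53.7 and 52.4 (double mutant), a change of −0.74 ± 0.0334 log2, adjusted p = 1.18e-09 against Col-0 and −0.26 ± 0.0334 log2, adjusted p = 0.000492 against atg2-4, with 3 levels that did not overlap.

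Leaf and root markers were both present, as the label of whole seedlings has it, and none of the 6 of each was at 0 in a Col-0 or double mutant library. Leaf markers summed to 21060 to 21583 FPKM in Col-0 and 19600 to 20338 in the double mutant, and LHCB1.3 and CA1 were the 2 of 6 that fell, with 0 risen. Root markers summed to 1405 to 1447 FPKM in Col-0 and 1040 to 1092 in the double mutant, most of it PYK10, a myrosinase of the root and hypocotyl (1143 ± 14.2 to 724 ± 9.98 FPKM, −0.66 ± 0.0309 log2, adjusted p = 1.69e-09). COBL9 of root hairs also fell (−0.39 ± 0.122 log2, adjusted p = 0.0178), a call lost without Col-0 library 1 or 3 or double mutant library 2 (adjusted p = 0.0513 to 0.0708). The nitrate carrier NRT2.1 rose (0.36 ± 0.0447 log2, adjusted p = 1.92e-05), and CASP1 of the endodermis (60.7 ± 5.28 and 61.5 ± 9.03 FPKM, adjusted p = 0.938) and EXPA7 of root hairs (adjusted p = 0.34) did not pass. The part of organ proportions in the falls of photosystem genes and of root-expressed genes such as AGP30 was not tested.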

How the data were processed

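RNA of whole Arabidopsis seedlings was poly-A selected, turned into cDNA with random hexamers and sequenced as paired reads, per the labels' protocols. The authors deposited FPKM for 26093 genes in 12 libraries and tables of their own comparisons with fold changes and p-values adjusted as false discovery rates, per the file headers. The submitters' processing notes name STAR 2.5.1a, Salmon 0.8.2, featureCounts 1.4.6-p5 of Subread, limma, edgeR and bcl2fastq. The sources used here give neither their roles nor the genome build or strand setting, and the other deposited comparison tables were not used. Columns were matched to genotypes by name, and those of the single mutants not to single samples.

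Whole fragments could be worked back from the FPKM for 26093 of 26093 genes within 0.01, and gave 15868471 to 18690658 fragments for the 6 libraries compared. They were used only for depth and for floors of 3 fragments, which cover counting error only. The 20662 genes that reached 1 FPKM in 3 or more libraries were fitted with limma 3.58.1 in R 4.3.3 on log2(FPKM + 1), with a mean per genotype, a trended variance, two-sided tests and Benjamini-Hochberg adjustment, which was tested on simulated data. The interaction is the effect of lon2-8 in atg2-4 minus its effect in Col-0. Python 3.11.15, pandas 2.3.3, numpy 2.4.6 and matplotlib 3.10.9 did the rest. Alternatives were another pseudocount, filters, scalings, the 2 genotypes alone, robust moderation and libraries left out.

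The members and lists were chosen with earlier results of these data known. Genes named are LON2 and ATG2, the 12 largest rises and 12 largest falls with libraries apart, the 8 largest gains and losses in FPKM, the 8 largest rises and falls against atg2-4, the 6 largest interactions of each sign, and up to 4 members of each list with the smallest adjusted p; not every one is printed. Other list members were named for their role after their values were seen.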

Additional observations from a re-analysis of the deposited data

Results flagged for a closer look

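For 12 genes the effect of the lon2-8 allele differed strongly between the atg2-4 background and the Col-0 background, by limma's test of that difference over all genes tested, of which 13.2% passed. The 12 are the largest differences of each sign, and the test used the atg2-4 and lon2-8 columns as named.

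A positive difference was found for AT5G59170, an extensin-like gene (2.6 log2, adjusted p = 4.04e-05), and for EPR1, a proline-rich extensin known from the endosperm, with 17.6 ± 2.06 FPKM (Col-0), 9.99 ± 2.24 (atg2-4), 7.75 ± 2.03 (lon2-8) and 19.5 ± 2.48 (double mutant), and the difference was 2.018 log2, adjusted p = 0.000129. The defensin-like AT2G36255, at 0 in the double mutant, was also among them (2.143 log2, adjusted p = 0.00179), with 0 FPKM in every atg2-4 library and 3.34 ± 1.93 in lon2-8, so the value is the change in lon2-8 against Col-0 with its sign turned, set by the pseudocount and by libraries that cannot go below 0, and not a level above the sum of both single effects. AT1G34047, another defensin-like gene, which overlaps AT1G34049, was at 12.5 ± 2.5 FPKM (Col-0), 1.75 ± 0.289 (atg2-4), 5.01 ± 0.187 (lon2-8) and 3.38 ± 0.488 (double mutant), and the difference was 1.814 log2, adjusted p = 3.38e-05. The non-coding AT5G07735 (1.936 log2, adjusted p = 0.0108) and the tRNA gene AT5G55045 (1.87 log2, adjusted p = 0.00671) were at no more than 2.63 FPKM in the mean of any genotype.

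A level lower than the sum of both single effects on the log2 scale was found for AT1G64795, an uncharacterized gene that overlaps ILA on the other strand, with 7.35 ± 1.13 FPKM (Col-0), 45.7 ± 1.86 (atg2-4), 56.9 ± 6.11 (lon2-8) and 17.6 ± 2.06 (double mutant), and the difference was −4.13 log2, adjusted p = 1.19e-08. AT1G73120 (−3.36 log2, adjusted p = 2.8e-08), ELIP2 (−2.504 log2, adjusted p = 8.54e-07) and GH9B15 (−2.156 log2, adjusted p = 2.34e-06) were high in the lon2-8 single mutant. AT5G46960, an invertase or pectin methylesterase inhibitor, was at 0.453 ± 0.343 FPKM (Col-0), 19.1 ± 3.5 (atg2-4), 4.17 ± 0.414 (lon2-8) and 13.5 ± 0.885 (double mutant), and the difference was −2.314 log2, adjusted p = 1.5e-05. AT1G26240, the largest rise, was at 4.67 ± 1.1 FPKM in lon2-8 and 645 ± 18.7 in atg2-4 (−2.186 log2, adjusted p = 2.34e-06).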

How the results depend on the processing

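Of 343 results for single genes in the double mutant against Col-0, the call and direction held for all 343 with a pseudocount of 0.1, with no filter on low values and with robust moderation, and none reversed under any alternative that gave a value (a filter at 5 FPKM gave one for 288). Leaving out 1 library ended 5 to 10 of the calls and added 0 to 2. Setting the median change to 0 ended 6 and added 6, and the replicate block ended 7 and added 2. The count of all genes called, 10753, was 8345 with a filter at 5 FPKM and 9706 to 9803 with 1 library left out. The count of genes changed at least 2-fold, 875, became 1399 with a pseudocount of 0.1, and that of at least 2-fold falls, 173, became 401, since the pseudocount shrinks changes of low genes. Against atg2-4, 1835 genes were called, and 1261 when only these 2 genotypes were fitted. With 1 double mutant library left out the count was 1064 to 1359, with 1090 without double mutant library 2 and 1064 without double mutant library 3. No atg2-4 library was left out. The split between rises and falls, 42.2% higher, was 51.2% with the median change set to 0, an alternative chosen after seeing the data. In the authors' deposited table it was 58.7%, at a stricter false discovery rate of at most 0.00999 and with some genes not tested here. Those 2 shares are thus not like for like with the 42.2% at 0.05. No pairing by replicate number was seen between Col-0 and the double mutant (correlations of same-numbered deviations 0.013, −0.021 and 0.026). Whether the samples were paired when grown or processed cannot be told from these values. A fit of the 2 genotypes with the replicate block, also chosen after seeing the data, called 10393 genes. No paired analysis was possible for comparisons with the single mutants because their columns could not be matched to single samples. Depth limits the genes at 0, for which only bounds are given.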

Other observations

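Some of the changed genes lie side by side. In 9 runs there were at least 4 consecutive tested genes that all changed at least 2-fold in 1 direction. In a run of 5, FOX1, AT1G26390, AT1G26400, AT1G26410 and AT1G26420, all berberine bridge genes, rose by 1.59 to 7.86 log2. The wall-associated kinases WAK4, WAK5, WAK3 and WAK1 rose by 1.21 to 2.16 log2. A run of 4 joined the iron peptides IMA2 and IMA1 with AT1G07367 and AT1G07373 and rose by 1.51 to 2.41 log2. A run of 7 from AT1G07913 to AT1G53640 rose by 1.66 to 5.21 log2. The longest run was of falls, 8 genes from AT4G22475 to AT4G22517 that fell by 1.23 to 1.85 log2. Neighbours can overlap or be close copies that share reads, whose part was not tested.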
